A study of Mus musculus with 12 samples.

Results

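The 10 genes described here are Nfe2l2, which encodes the transcription factor NRF2, Keap1, which encodes its inhibitor, and 8 antioxidant genes counted among the targets of NRF2: Nqo1, Glrx, Gsr, Gclm, Gclc, Srxn1, Txnrd1 and Hmox1. They were found by gene symbol in the platform annotation, and the choice of these 10 symbols was made with earlier results of these data known. Each had exactly 1 probe set on the array, and together they were 10 of the 19752 genes tested.

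RNA came from CD4+ T cells of the spleens of male C57BL/6 mice aged 6 weeks, isolated by negative selection, which removes other cells with antibodies. All samples shared 48 h of activation with beads against CD3 and CD28, so no group holds resting cells. The groups were IL-12 at 100 U/ml for 8 h (n = 4), the same dose for 2 h (n = 5), untreated for 2 h (n = 2) and a baseline sample with no culture time in its labels (n = 1). There was no untreated group at 8 h, so IL-12 and time in culture cannot be told apart for anything seen at 8 h.

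Values are log2 intensities from 12 Affymetrix Mouse Gene 1.0 ST arrays, and the number of arrays limits the precision. Sample titles carry numbers, 2 to 4 on 5 IL-12 arrays and 5 to 8 on the remaining 7 arrays, and the labels do not say what the numbers stand for. No label tells whether replicates were separate mice or cultures. The p-values therefore cover the variation among these arrays alone, part or all of which may be technical. The 8 measured markers of CD4+ T cells all lay above the median gene, with a mean of 11.76 to 11.99 per array. Of 13 macrophage and monocyte markers 3 lay above the median gene, and of 6 markers of red pulp macrophages, splenic cells that break down heme, 0 did. Ifng, the interferon-gamma gene that IL-12 induces, was 2.62-fold higher after 8 h of IL-12 than in untreated cells (log2 1.39 ± 0.20, SE, limma adjusted p = 0.00125). After 2 h of IL-12, the time that the untreated cells share, it was 3.83-fold higher (log2 1.94 ± 0.20, limma adjusted p = 0.0025).

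NRF2 is made continuously and is marked for degradation by KEAP1 together with the ubiquitin ligase CUL3. Oxidants and electrophiles modify cysteines of KEAP1, NRF2 then accumulates, pairs with a small MAF protein and binds antioxidant response elements, sites where the repressor BACH1 competes with it. Much of this control acts on the protein, so the mRNA of Nfe2l2 or Keap1 need not follow NRF2 activity. In mouse T cells activation raises reactive oxygen species, and glutathione made by the enzyme that Gclc and Gclm encode is known to be needed for the growth that follows.

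The promoter stretches of Nqo1, Glrx and Srxn1 are shown because these 3 genes differed at 8 h of IL-12. Each holds the 250 bases before the annotated transcript start, 5′ to 3′ along the gene's own strand, from RefSeq on build GRCm38.p6. Capitals mark matches to any of 4 short motifs searched on both strands, which were TGACNNNGC (core of the antioxidant response element), TGANTCA (AP-1 type), GCGTG (aryl hydrocarbon receptor core) and TTCNNNGAA (STAT type).
Nqo1 (chr8:107403206-107403455, minus strand): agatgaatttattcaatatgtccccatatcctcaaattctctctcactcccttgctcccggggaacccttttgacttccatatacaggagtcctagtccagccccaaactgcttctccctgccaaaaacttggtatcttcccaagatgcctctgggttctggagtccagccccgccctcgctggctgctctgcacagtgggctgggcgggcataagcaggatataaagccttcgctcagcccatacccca
Glrx (chr13:75839635-75839884, plus strand): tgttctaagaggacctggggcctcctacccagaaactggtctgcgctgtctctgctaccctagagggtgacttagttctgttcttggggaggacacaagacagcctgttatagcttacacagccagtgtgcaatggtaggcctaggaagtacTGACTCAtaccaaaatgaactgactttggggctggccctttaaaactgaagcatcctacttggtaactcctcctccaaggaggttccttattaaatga
Srxn1 (chr2:152105274-152105523, plus strand): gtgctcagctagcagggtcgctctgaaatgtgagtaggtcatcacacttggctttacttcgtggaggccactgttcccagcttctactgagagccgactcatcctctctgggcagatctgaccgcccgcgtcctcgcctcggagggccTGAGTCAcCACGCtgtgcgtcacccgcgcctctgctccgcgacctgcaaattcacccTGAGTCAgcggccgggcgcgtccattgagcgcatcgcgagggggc

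Only the AP-1 type and the aryl hydrocarbon receptor core had matches in these 3 stretches. The antioxidant response element core was searched only in its TGAC form, so a TGAG form would not be marked. The Nqo1 stretch held 0 matches, which says only that these letters are not in this window. The Glrx stretch held 1 AP-1 type match, 98 to 92 bases before the start. The Srxn1 stretch held 2 AP-1 type matches, at 102 to 96 and 45 to 39 bases before the start, and 1 aryl hydrocarbon receptor core between them. The AP-1 type match at 45 to 39 is followed by gc. With these letters it reads TGAGTCAGC, a TGAG form of the antioxidant response element core. No marked match overlapped another in these windows, and capitals of the receptor core are on the opposite strand. Among 32851 promoter windows of the same length, 6.75% held the AP-1 type motif, 10.2% the antioxidant response element core, 28.2% the aryl hydrocarbon receptor core and 7.02% the STAT type motif. In all, 7 of the 10 genes had an entry. The antioxidant response element core in its TGAC form occurred in the windows of Nfe2l2 and Gclm and in 1 of 3 entries of Txnrd1.

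**Figure D1:**
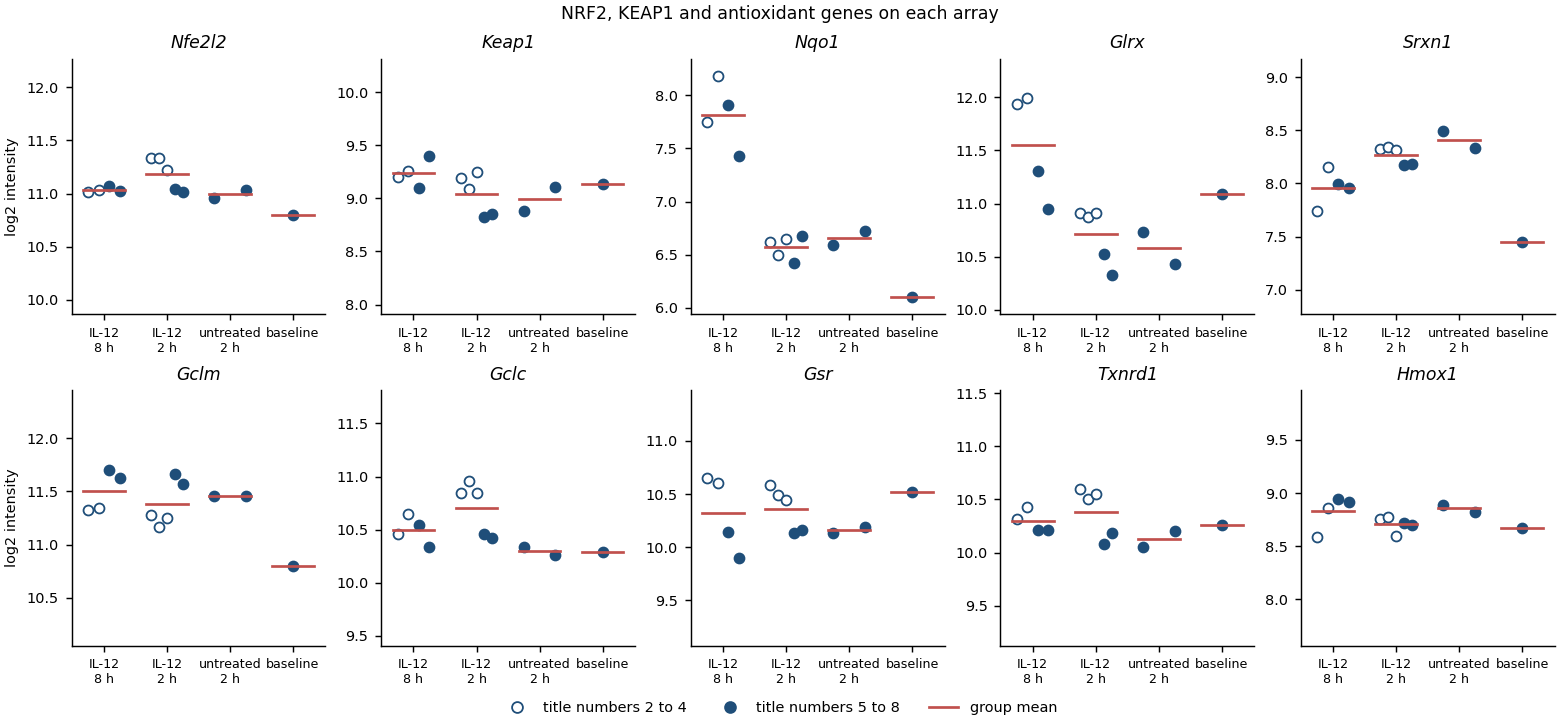
Log2 intensity of the 10 genes on each of the 12 arrays, 1 panel per gene with its own axis range. Open points are arrays with title numbers 2 to 4, filled points those with 5 to 8, and bars are group means. The 4 IL-12 8 h arrays lie above all IL-12 2 h and untreated arrays for Nqo1 and Glrx and below them for Srxn1.

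Neither regulator's mRNA passed the test at 8 h of IL-12. Nfe2l2 measured 11.01, 11.03, 11.07 and 11.02 after 8 h of IL-12, 11.33, 11.33, 11.22, 11.04 and 11.01 after 2 h, 10.96 and 11.03 in untreated cells and 10.80 at baseline, on the log2 intensity scale. The 8 h arrays fell within the range of the 2 h arrays, and the 3 highest values all came from 2 h arrays numbered 2 to 4. The log2 change was -0.14 ± 0.07 for 8 h against 2 h (limma adjusted p = 0.219) and -0.03 ± 0.09 for 8 h against untreated cells (adjusted p = 0.932).

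Keap1 measured 9.20, 9.26, 9.10 and 9.40 after 8 h of IL-12, 8.82 to 9.25 with a median of 9.09 after 2 h, 8.88 and 9.11 in untreated cells and 9.13 at baseline. The groups overlapped. The log2 change was 0.22 ± 0.09 for 8 h against 2 h (adjusted p = 0.133) and 0.16 ± 0.12 for 8 h against untreated cells (adjusted p = 0.64).

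Of the 8 targets, Nqo1 differed most at 8 h. It encodes NAD(P)H quinone dehydrogenase 1, which reduces quinones in a single step that avoids reactive intermediates. Nqo1 measured 7.75, 8.18, 7.91 and 7.43 after 8 h of IL-12, 6.62, 6.50, 6.65, 6.42 and 6.68 after 2 h, 6.59 and 6.72 in untreated cells and 6.10 at baseline. Every 8 h array lay above every other array. Outside the 8 h group the probe set was dimmer than the median gene of its array, which lay between 7.33 and 7.40. Nqo1 rose 2.39-fold in 8 h against 2 h arrays (log2 1.26 ± 0.11, adjusted p = 5.79e-06) and 2.11-fold against untreated cells (log2 1.08 ± 0.15, adjusted p = 0.00109).

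The rise was present within both runs of title numbers, at a log2 of 1.37 among numbers 2 to 4 and 1.12 among numbers 5 and 6. In whole-sample RNA, a change in the share of cells that carry a transcript and a change per cell cannot be told apart. The mean log2 of the 13 macrophage and monocyte markers was 6.42, 6.42, 6.85 and 6.76 in the 8 h arrays, 6.46 to 6.90 in the 2 h arrays, and 7.01 and 6.85 in the untreated arrays, and 0 of the 13 were called in either comparison. Among the other marker lists, 2 of 8 CD4+ T cell markers (Cd28 and Cd3d) and 1 of 4 erythroid and platelet markers (Klf1) were higher in 8 h against 2 h arrays, and of 5 NK cell markers 1 was higher and 1 lower (Klrb1c and Ncr1 were the 2 called). Against untreated cells 1 NK cell marker, Klrb1c, was lower and no other marker was called. Only the macrophage and monocyte marker mean was added to the model, among the alternative settings given next. The part of the other marker lists in the change of Nqo1 was not tested. Nqo1 stayed called in all 17 alternative settings of the first comparison, with log2 changes of 1.12 to 1.37, and in all 13 of the second, with 0.98 to 1.26.

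Glrx, the gene of glutaredoxin 1, rose as well. Glutaredoxin removes glutathione from modified protein cysteines. Glrx measured 11.94, 11.99, 11.31 and 10.95 after 8 h of IL-12, 10.91, 10.87, 10.91, 10.53 and 10.33 after 2 h, 10.73 and 10.43 in untreated cells and 11.09 at baseline. The 8 h arrays all exceeded the 2 h and untreated arrays, but array 6 did so narrowly, and the baseline array lay inside the 8 h range. The change was 1.87-fold against 2 h (log2 0.90 ± 0.10, adjusted p = 3.44e-05) and 1.57-fold against untreated cells (log2 0.65 ± 0.13, adjusted p = 0.0134).

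Within runs the 8 h against 2 h difference of Glrx was a log2 of 1.07 among numbers 2 to 4 and 0.70 among numbers 5 and 6. The call against 2 h held in all 18 alternative settings. The call against untreated cells held in 8 of 14. It was lost without the run term (log2 0.97, adjusted p = 0.101), among numbers 5 to 8 alone (0.55, adjusted p = 0.122), without 8 h array 5 (0.61, adjusted p = 0.0582), without untreated array 8 (0.50, adjusted p = 0.155), with the baseline array pooled with the untreated arrays (0.48, adjusted p = 0.241), and when the mean of the macrophage markers was added to the model (0.74, adjusted p = 0.105).

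Srxn1 went the other way. It encodes sulfiredoxin, which restores overoxidised peroxiredoxins. Srxn1 measured 7.74, 8.15, 7.99 and 7.96 after 8 h of IL-12, 8.32, 8.34, 8.31, 8.17 and 8.18 after 2 h, 8.49 and 8.33 in untreated cells and 7.45 at baseline. All 8 h arrays lay below all 2 h and untreated arrays, though array 3 at 8 h was separated from array 5 at 2 h by little. Srxn1 fell 1.23-fold against 2 h (log2 -0.30 ± 0.08, adjusted p = 0.0214) and 1.40-fold against untreated cells (log2 -0.49 ± 0.11, adjusted p = 0.0234).

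The fall of Srxn1 was the least stable of the 3 differences. With the title number as a block, which pairs 2 h and 8 h arrays, the log2 change against 2 h was -0.29 (adjusted p = 0.0727), and the call also failed in 6 other settings of 18. Without 8 h array 2, the lowest of its group, the log2 change was -0.19 (adjusted p = 0.0795). Against untreated cells it failed in 6 of 14, among them leaving out untreated array 7 (-0.41, adjusted p = 0.202) or 8 (log2 -0.57, adjusted p = 0.0627), and with the baseline array pooled with untreated cells the log2 change was -0.17 (adjusted p = 0.808).

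Across the 10 genes, limma called 3 in 8 h against 2 h, Nqo1 and Glrx higher and Srxn1 lower, where 12.6% of all genes were called, 6.27% higher and 6.36% lower. The same 3 were called in 8 h against untreated cells, where 3.16% of all genes were called, 1.04% higher and 2.13% lower. The 2 comparisons share the 8 h arrays, so they are not independent. The median log2 change of the 10 genes was 0.04 in both, against -0.009 over all genes in both. The 8 h and 2 h arrays did not overlap for 3 of the 10 genes, against 8.21% of all genes. The 8 h and untreated arrays did not overlap for 5, adding Gclc and Txnrd1 to the 3 called genes, against 23.7% of all genes. For Gclc and Txnrd1 the lowest 8 h arrays (10.34 and 10.21) lay almost level with the highest untreated arrays (10.34 and 10.20). Their log2 changes from the model were 0.05 and 0.02. By the run term both genes were higher in arrays numbered 2 to 4, and no untreated array carries these numbers. Within numbers 5 to 8 alone the differences of 8 h and untreated means were 0.14 for Gclc and 0.09 for Txnrd1. What keeps these arrays from overlapping was not tested.

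**Figure D2:**
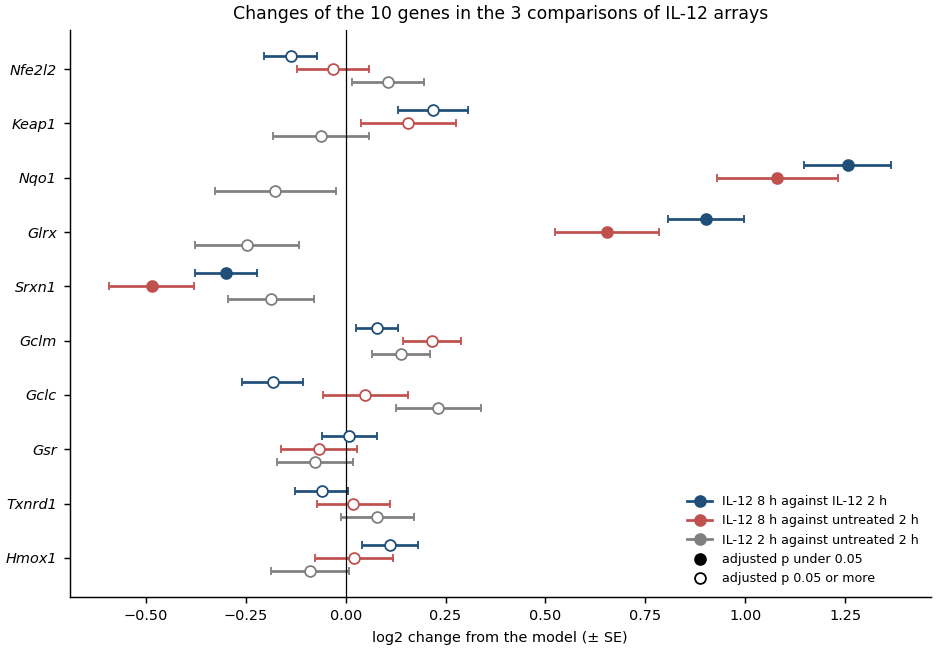
Log2 change of each gene ± SE from the model in IL-12 8 h against IL-12 2 h, IL-12 8 h against untreated 2 h and IL-12 2 h against untreated 2 h. Filled points had an adjusted p under 0.05. Nqo1 at 1.26 and 1.08 and Glrx at 0.90 and 0.65 stand to the right of the other genes, and Srxn1 at -0.30 and -0.49 to the left.

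The other glutathione genes did not pass the test at 8 h. Gsr, glutathione reductase, which regenerates reduced glutathione with NADPH, ranged from 9.90 to 10.65 after 8 h of IL-12, from 10.13 to 10.59 after 2 h, measured 10.13 and 10.19 in untreated cells and 10.52 at baseline. Its log2 change was 0.01 ± 0.07 against 2 h (adjusted p = 0.964) and -0.07 ± 0.10 against untreated cells (adjusted p = 0.839). Gclc, the catalytic subunit of glutamate-cysteine ligase, the enzyme that starts glutathione synthesis, ranged from 10.34 to 10.65 after 8 h, from 10.42 to 10.96 after 2 h, measured 10.34 and 10.26 in untreated cells and 10.29 at baseline. The 2 h arrays separated by number run, with 10.85, 10.96 and 10.85 among numbers 2 to 4 and 10.46 and 10.42 among numbers 5 and 6. The 8 h arrays of the 2 runs overlapped. The log2 change against 2 h was -0.18 ± 0.08 (adjusted p = 0.154). Among numbers 2 to 4 alone it was -0.33 and was called (adjusted p = 0.0173), and among numbers 5 and 6 it was -0.003.

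Gclm, the modifier subunit of the same ligase, measured 11.33, 11.34, 11.70 and 11.63 after 8 h of IL-12, 11.28, 11.17, 11.25, 11.66 and 11.57 after 2 h, 11.46 in both untreated arrays and 10.80 at baseline. The 8 h and 2 h groups interleaved, and the baseline array was the lowest of all. The log2 change was 0.08 ± 0.05 against 2 h (adjusted p = 0.429) and 0.22 ± 0.07 against untreated cells (adjusted p = 0.152).

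Txnrd1, thioredoxin reductase 1, a selenoprotein that keeps thioredoxin reduced, ranged from 10.21 to 10.43 after 8 h, from 10.08 to 10.60 after 2 h, measured 10.05 and 10.20 in untreated cells and 10.26 at baseline. Its log2 change was -0.06 ± 0.07 against 2 h (adjusted p = 0.669) and 0.02 ± 0.09 against untreated cells (adjusted p = 0.96). Hmox1, heme oxygenase 1, which opens the heme ring and releases iron, ranged from 8.59 to 8.94 after 8 h, from 8.60 to 8.77 after 2 h, measured 8.89 and 8.82 in untreated cells and 8.67 at baseline. Its groups overlapped at 8 h, with a log2 change of 0.11 ± 0.07 against 2 h (adjusted p = 0.391) and 0.02 ± 0.10 against untreated cells (adjusted p = 0.959). Red pulp macrophages also express Hmox1 strongly, and the mean of their 6 markers stayed between 5.54 and 5.76 on all 12 arrays.

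None of the 10 genes passed the test at 2 h of IL-12 against untreated cells, where 0.0709% of all genes did. Log2 changes ran from -0.25 ± 0.13 for Glrx to 0.23 ± 0.11 for Gclc, each with an adjusted p of 0.999 (limma). At an unadjusted p under 0.05 the count was 1 of 10, Gclc (with 0.0455 in limma's fit over all genes), against 4.92% of all genes. Gclc lay higher in all 5 IL-12 arrays (10.42 to 10.96) than in both untreated arrays (10.34 and 10.26), and Hmox1 lay lower (8.60 to 8.77, against 8.89 and 8.82). These were 2 of 10 genes without overlap, against 11.9% of all genes. For Gclc the difference was 0.14 within numbers 5 to 8, where both groups have arrays. Nqo1 had a log2 change of -0.18 ± 0.15 at 2 h.

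Baseline has 1 array, so its comparison with untreated cells takes the spread from the other groups and has no replicate check. The baseline array lay outside both untreated arrays for 9 of the 10 genes, as it did for 75.6% of all genes. With this limit, limma called 2 of the 10 genes, both higher in untreated cells, where 10.2% of all genes were called, 6.28% higher and 3.96% lower. Srxn1 measured 8.49 and 8.33 in untreated cells and 7.45 at baseline, 1.95-fold higher in untreated cells (log2 0.96 ± 0.14, adjusted p = 0.000694). Gclm measured 11.46 in both untreated arrays and 10.80 at baseline, 1.59-fold higher (log2 0.66 ± 0.10, adjusted p = 0.000623). Nqo1 had the same sign at a log2 of 0.55 ± 0.20 (adjusted p = 0.104), while Glrx at -0.51 ± 0.17 (adjusted p = 0.0805) and Gsr at -0.36 ± 0.13 (adjusted p = 0.0927) had the opposite one.

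The baseline array carries the number 5 but correlated across genes at a median r of 0.9926 with arrays numbered 2 to 4 and 0.9893 with the others numbered 5 to 8. Assigned to numbers 2 to 4, it left Gclm uncalled (log2 0.31, adjusted p = 0.289), and Srxn1 stayed called. Without the run term Gclm was not called either (log2 0.66, adjusted p = 0.195). Untreated arrays had 3 of 7 B cell markers and 3 of 4 erythroid and platelet markers lower than baseline and 2 of 13 macrophage and monocyte markers higher. Higher in untreated arrays were also 2 of 5 NK cell markers, 1 of 2 CD8 T cell markers and 1 of 7 dendritic cell markers. B cell markers averaged 6.89 and 6.83 in untreated arrays and 7.39 at baseline, and erythroid and platelet markers 6.98 and 7.03 in untreated arrays and 7.79 at baseline. The part of the B cell, erythroid and other non-macrophage markers in the differences of Srxn1 and Gclm was not tested. The macrophage marker mean as a covariate raised the SE from 0.14 to 0.26 for Srxn1 and from 0.10 to 0.18 for Gclm. With the mean of the macrophage markers added to the model, Srxn1 (log2 0.76, adjusted p = 0.274) and Gclm (log2 0.69, adjusted p = 0.148) were no longer called.

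Of the 10 genes, 5 also differed by title number. Glrx (log2 0.63 ± 0.10, adjusted p = 0.000305), Gsr (0.47 ± 0.07, adjusted p = 0.000269), Txnrd1 (0.30 ± 0.07, adjusted p = 0.00424) and Gclc (0.30 ± 0.08, adjusted p = 0.0123) were higher in arrays numbered 2 to 4 than in those numbered 5 to 8. Gclm was lower (-0.36 ± 0.05, adjusted p = 0.000287). These were 5 of 10 genes, where 24.3% of all genes were called. Nfe2l2, Keap1, Nqo1, Hmox1 and Srxn1 did not pass the test, with log2 differences of -0.09 to 0.18. In the same comparison 7 of 13 macrophage and monocyte markers were lower in arrays numbered 2 to 4, with a mean over the 13 of 6.42 to 6.53 against 6.63 to 7.01. Markers of other cells moved with the numbers too, with 4 of 7 B cell and 2 of 4 erythroid and platelet markers higher in arrays numbered 2 to 4. Of 5 NK cell markers 1 was higher and 3 were lower, and of 8 CD4+ T cell markers 3 were higher and 2 lower. Of 2 CD8 T cell markers 1 was lower. Of 8 neutrophil markers 2 were higher and 1 was lower, of 7 dendritic cell markers 1 was higher and 1 lower, and of 6 red pulp macrophage markers 1 was lower. The part of these markers in the gene differences was not tested.

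Whether the 8 h against 2 h difference itself depended on the run was tested with an interaction term over the 9 IL-12 arrays. It called 0 of the 10 genes, where 1.96% of all genes were called. At an unadjusted p under 0.05 the count was 5 of 10, against 14.5% of all genes. These 5 were Nfe2l2 (-0.27 among numbers 2 to 4 and 0.02 among numbers 5 and 6), Keap1 (0.05 and 0.42), Gclc (-0.33 and -0.003), Txnrd1 (-0.17 and 0.08) and Glrx (1.07 and 0.70), with limma adjusted p between 0.208 and 0.324. Nqo1 differed by 0.26 ± 0.22 between runs (adjusted p = 0.66) and Srxn1 by -0.17 ± 0.15 (adjusted p = 0.669).

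**Figure D3:**
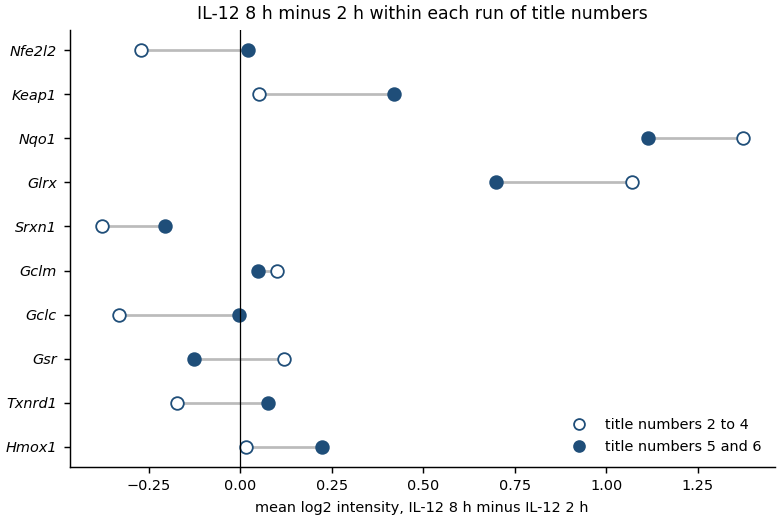
Difference of mean log2 intensity between IL-12 8 h and IL-12 2 h for each gene, computed among arrays numbered 2 to 4 (open points) and among arrays numbered 5 and 6 (filled points). Nqo1 (1.37 and 1.12), Glrx (1.07 and 0.70) and Srxn1 (-0.38 and -0.20) kept their sign in both runs.

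Several partners and repressors of NRF2 passed the test at 8 h. Of 17 measured genes in this list, 2 rose and 6 fell in 8 h against 2 h arrays, where 6.27% of all genes rose and 6.36% fell, and the median log2 change was 0 against -0.009 over all genes. The replicate block ended 4 of these 8 calls, those of Mafk, Mafg, Bach2 and Btrc, as it ended 1266 of the 2496 calls over all genes. Bach1, the repressor that competes with NRF2 for its sites, measured 8.15, 8.34, 8.34 and 8.24 after 8 h of IL-12, 9.0, 8.83, 8.88, 9.0 and 8.93 after 2 h, 8.85 and 8.99 in untreated cells and 8.57 at baseline. All 8 h arrays were lower than all other arrays, the baseline one included. Bach1 fell 1.59-fold against 2 h (log2 -0.67 ± 0.06, adjusted p = 1.36e-05) and 1.54-fold against untreated cells (log2 -0.62 ± 0.09, adjusted p = 0.00109). The second call was lost in 1 of 14 settings, with the baseline array pooled with untreated cells (log2 -0.51, adjusted p = 0.0501).

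The genes Maff, Mafk and Mafg encode small MAF proteins, which pair with either NRF2 or BACH1 on DNA. Maff measured 7.13, 7.16, 7.28 and 7.08 after 8 h of IL-12, 7.88, 7.94, 7.80, 8.00 and 7.79 after 2 h, 7.57 and 7.80 in untreated cells and 7.47 at baseline. Here again the 8 h arrays were the 4 lowest. Maff fell 1.64-fold against 2 h (log2 -0.72 ± 0.07, adjusted p = 1.76e-05) and 1.42-fold against untreated cells (log2 -0.50 ± 0.10, adjusted p = 0.0106), where the call was lost in 4 of 14 settings. Mafk fell by less, at -0.32 ± 0.07 against 2 h (adjusted p = 0.00784, and 0.0532 with the replicate block) and -0.46 ± 0.10 against untreated cells (adjusted p = 0.0188, lost in 5 of 14 settings). Mafg, named after its values were seen, had -0.25 ± 0.07 against 2 h (adjusted p = 0.024, and 0.092 with the replicate block), and against untreated cells it did not pass the test (log2 -0.14, adjusted p = 0.577). Bach2, a lymphocyte repressor related to Bach1 and also named after its values were seen, had -0.31 ± 0.09 against 2 h (adjusted p = 0.0382, and 0.152 with the replicate block), with -0.53 among numbers 2 to 4 and -0.05 among numbers 5 and 6. Of 18 settings, the call against 2 h was lost in 3 for Mafk, 9 for Mafg and 10 for Bach2.

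Dpp3, a peptidase that binds KEAP1 and can displace NRF2 from it, rose by a log2 of 0.51 ± 0.08 in 8 h against 2 h arrays (adjusted p = 0.000643). It measured 9.75, 9.94, 9.49 and 9.82 after 8 h and 8.98 to 9.46 with a median of 9.39 after 2 h, with 9.21 and 9.31 in untreated cells and 9.71 at baseline. Against untreated cells it did not pass the test (log2 0.34 ± 0.11, adjusted p = 0.115). Fbxw11 and Btrc, the βTrCP adaptors of a second ubiquitin ligase for NRF2, are named after their values were seen. Fbxw11 fell by a log2 of 0.31 ± 0.06 against 2 h (adjusted p = 0.00214), whereas Btrc rose by 0.28 ± 0.08 (adjusted p = 0.0357, and 0.079 with the replicate block). The call against 2 h was lost in 2 of 18 settings for Fbxw11 and in 11 of 18 for Btrc.

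Other antioxidant and metabolic genes formed 6 further lists, 4 of them with genes called in both directions. In 8 h against 2 h arrays, 3 of 28 measured glutathione genes rose and 3 fell, 1 of 15 thioredoxin and peroxiredoxin genes rose and 2 fell, and 2 of 14 NADPH supply genes rose and 1 fell. In the same comparison 2 of 13 iron and heme genes rose and 0 fell, and 6 of 18 drug metabolism genes rose and 1 fell. Of 9 genes in the superoxide and peroxide list 1 rose, the selenocysteine lyase gene Scly, and 0 fell. Cat, Sod3, Park7 and Oxr1 of that list were not called. Over all genes in this comparison 12.6% were called, 6.27% higher and 6.36% lower, and the lists ranged from 11.1% called for superoxide and peroxide genes and 15.4% for iron and heme genes to 38.9% for drug metabolism genes. The replicate block left 3 of 6 calls among glutathione genes, 2 of 3 among thioredoxin and peroxiredoxin genes and 1 of 3 among NADPH supply genes. It left 1 of 2 among iron and heme genes, 3 of 7 among drug metabolism genes and the 1 among superoxide and peroxide genes. Median log2 changes of these 6 lists lay between 0.02 and 0.15.

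Among the glutathione genes, the transferase genes Gstp1 (log2 0.32 ± 0.06, adjusted p = 0.00459) and Gsto1 (0.27 ± 0.06, adjusted p = 0.00806) rose. Ggct, which acts in glutathione breakdown, rose by 0.31 ± 0.07 (adjusted p = 0.0117, and 0.0779 with the replicate block), and its call was lost in 4 of 18 settings. Chac1, which degrades glutathione, fell by a log2 of 0.77 ± 0.13 against 2 h (adjusted p = 0.00132). Its difference was -1.13 among numbers 2 to 4 and -0.33 among numbers 5 and 6, and among numbers 5 to 8 alone it was not called (adjusted p = 0.261). Slc7a11, the cystine importer, named after its values were seen, fell by 0.48 ± 0.15 (adjusted p = 0.0477), with -0.87 in the first run and -0.02 in the second, and the call held in 5 of 18 settings (adjusted p = 0.153 with the replicate block).

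Among the remaining lists, Scly, selenocysteine lyase, which recovers selenium for selenoproteins, had the smallest p in both 8 h comparisons. It measured 9.78, 9.85, 9.46 and 9.34 after 8 h of IL-12, 9.31, 9.17, 9.36, 8.91 and 8.92 after 2 h, 8.57 and 8.43 in untreated cells and 8.81 at baseline. The 8 h and 2 h arrays overlapped by 1 array, while all IL-12 arrays exceeded both untreated arrays. Scly rose by a log2 of 0.52 ± 0.06 against 2 h (adjusted p = 8.21e-05) and 1.89-fold against untreated cells (log2 0.92 ± 0.08, adjusted p = 3.14e-05). The call against untreated cells held in all 14 settings, and that against 2 h was lost without the run term (log2 0.48, adjusted p = 0.0547). At 2 h against untreated cells its log2 change of 0.40 ± 0.08 did not pass the test (adjusted p = 0.181).

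Alas1, the first enzyme of heme synthesis, rose by 0.43 ± 0.05 against 2 h (adjusted p = 0.00014), and Aldh3a2, a fatty aldehyde dehydrogenase, by 0.33 ± 0.06 (adjusted p = 0.00282). Nqo2, the paralog of Nqo1, rose by 0.29 ± 0.06 (adjusted p = 0.00426). Abcc4, an efflux pump, rose by 0.33 ± 0.06 (adjusted p = 0.00202), and Msra, a methionine sulfoxide reductase, by 0.33 ± 0.08 (adjusted p = 0.0126). Sesn2, a stress-induced sestrin, fell by a log2 of 0.46 ± 0.08 (adjusted p = 0.00189). Alas1 kept its call in all 18 settings. Aldh3a2 lost its call among numbers 5 to 8 alone. Nqo2, Abcc4, Msra, Sesn2, Gstp1 and Gsto1 lost theirs both among numbers 5 to 8 alone and on all arrays without the run term (adjusted p = 0.0961 for Abcc4 to 0.631 for Sesn2), and Gsto1 also among numbers 2 to 4 (adjusted p = 0.0652).

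Against untreated cells, 1 of the 120 list genes rose at 8 h, Scly, and 5 fell: Bach1, Maff, Mafk, Fbxw11 and Sesn2. That is 5% of the list genes, against 3.16% of all genes. The call of Fbxw11 was lost in 8 of 14 settings and that of Sesn2 in 7 of 14. With the baseline array pooled with untreated cells the log2 change was -0.22 for Fbxw11 (adjusted p = 0.408) and -0.003 for Sesn2 (adjusted p = 0.998), against -0.34 and -0.50 without it. Against 2 h the share was 28.3%, against 12.6% of all genes, and the replicate block left 18 of these 34 calls. At 2 h against untreated cells limma called 0 of the 120, where 0.0709% of all genes were called. In untreated cells against baseline 13 rose and 6 fell, where 6.28% of all genes rose and 3.96% fell, with Sesn2 at a log2 of 1.49 ± 0.15 (adjusted p = 3.03e-05), Chac1 at 1.38 ± 0.23 (adjusted p = 0.00173) and Slc7a11 at 1.18 ± 0.27 (adjusted p = 0.0117). With the baseline array assigned to numbers 2 to 4 none of these 3 was called, at log2 changes of 0.52, 0.09 and 0.11.

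**Figure D4:**
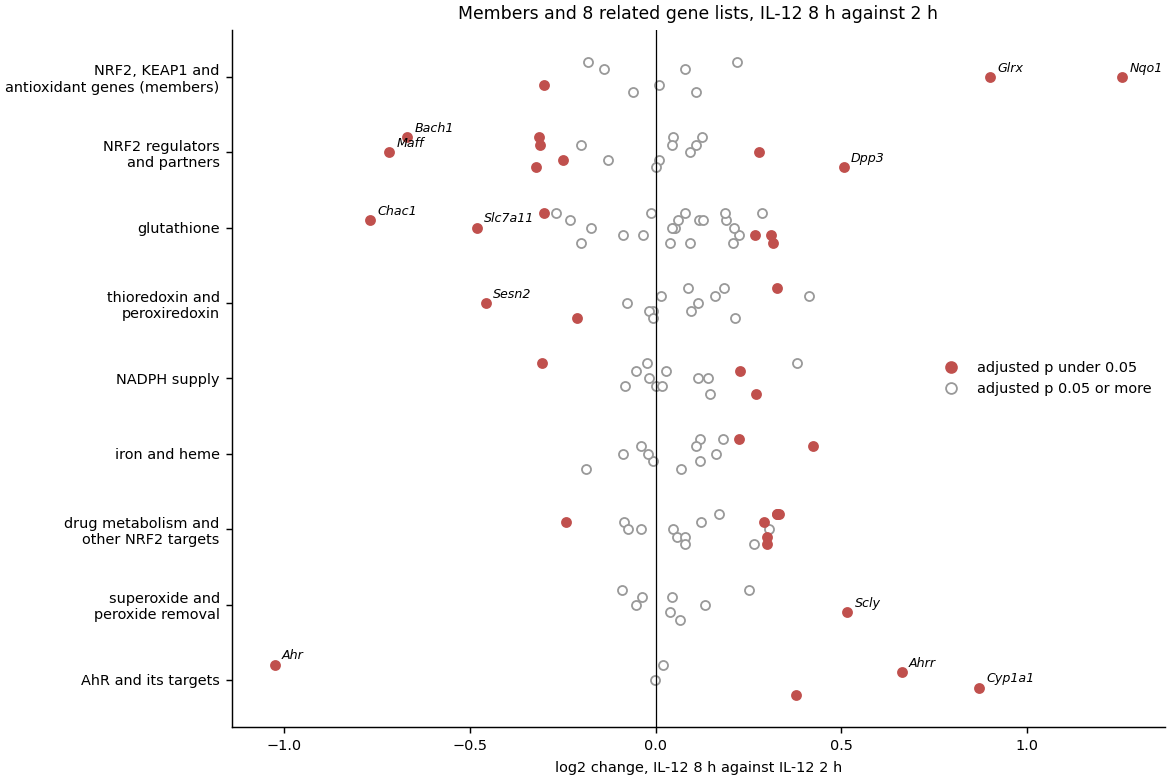
Log2 change in IL-12 8 h against IL-12 2 h for each measured gene of the 8 related lists and for the 10 genes in the top row. Filled points had an adjusted p under 0.05. Bach1 (-0.67) and Maff (-0.72) lie left of the other NRF2 partners, and Nqo1 (1.26) is farthest right of all genes plotted.

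Nqo1 is also a known target of the aryl hydrocarbon receptor, a ligand-activated factor encoded by Ahr, so 6 genes of that pathway were set beside it. In 8 h against 2 h arrays 3 of the 6 rose and 1 fell, where 12.6% of all genes were called, 6.27% higher and 6.36% lower. Ahrr, the receptor's repressor and target, measured 7.33, 7.78, 7.46 and 6.80 after 8 h of IL-12, 6.45 to 6.89 with a median of 6.69 after 2 h, 6.52 and 6.64 in untreated cells and 6.40 at baseline, and rose by a log2 of 0.66 ± 0.12 against 2 h (adjusted p = 0.00282). Array 6 was the lowest of the 8 h arrays for Ahrr, Nqo1 and Cyp1b1, and not for Cyp1a1. Among the other named genes it was the lowest for Glrx, Gsr, Gclc, Maff, Scly and several more. Whether these genes share a cause was not tested. Cyp1a1, the classic target, measured 6.83, 7.36, 8.82 and 7.15 after 8 h and 6.43 to 6.86 with a median of 6.53 after 2 h. Its rise of 0.87 ± 0.24 (adjusted p = 0.031) was lost in 7 of 17 settings, and array 5 stood far above the other 8 h arrays. Without that array the log2 change of Cyp1a1 was 0.51 against 2 h, still called. Cyp1b1, another target, rose by 0.38 ± 0.11 (adjusted p = 0.0412, and 0.0709 with the replicate block), and its call was lost in 10 of 17 settings. Array 5 was again the highest of the 8 h arrays, at 6.81 against 6.32 or less on the others, and without it the log2 change was 0.23, still called.

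Ahr itself fell against 2 h by a log2 of 1.02 ± 0.16 (adjusted p = 0.000728), with -1.52 among numbers 2 to 4 and -0.43 among numbers 5 and 6. Among numbers 5 to 8 alone neither Ahr (adjusted p = 0.0644) nor Ahrr (adjusted p = 0.193) was called. None of the 6 passed the test against untreated cells, where Ahrr had a log2 change of 0.60 ± 0.17 (adjusted p = 0.0786) and Cyp1a1 of 0.81 ± 0.34 (adjusted p = 0.267), which was 0.24 without 8 h array 5.

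Over the 12 arrays, with the run difference removed, the genes whose pattern was most like that of Nqo1 were Washc5 (Pearson r = 0.981), Aldh3a2 (0.96), Rbmx (0.959), Akr1e1 (0.957) and Commd3 (0.956). Those most like Glrx were Phf11a (0.989), Gipc1 (0.984), Slc25a45 (0.977), Pip4k2b (0.976) and Pip4p1 (0.975). They are a description of the 12 arrays, which share groups and runs, and were picked as the highest of all genes tested. Of these 10 genes, Phf11a (log2 0.52 ± 0.10, adjusted p = 0.0101) and Gipc1 (log2 0.32, adjusted p = 0.0363) passed the test in 8 h against untreated cells. Both were picked for likeness to Glrx, itself called there, so these calls are not independent of it. The call of Phf11a was lost in 5 of 13 settings and that of Gipc1 in 9 of 14. The 5 genes most like Nqo1 had adjusted p of 0.0716 to 0.177, and the other 3 most like Glrx 0.0538 to 0.0865.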

How the data were processed

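The 12 arrays measured RNA of splenic CD4+ T cells. The deposited values are linear intensity of 24922 probe sets. RMA and Affymetrix Power Tools are named, without versions, in the submitters' processing notes. RMA corrects background, makes the distributions of the arrays equal, which removes differences shared by most genes, and summarises probes. The genome build is not given in the sources used here. Array medians lay between 160.6 and 167.3, and 0 of the value columns were from samples outside the series.

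Intensities were taken to log2 without further normalization. The platform annotation gave 1 symbol for 21425 probe sets, several for 1399 and none for 2098. The brightest probe set stood for each of 921 genes with more than 1, which left 19752 genes with no filter on dim ones. All arrays entered 1 model, with 4 group means and the run of title numbers as a further term (limma 3.58.1, R 4.3.3, lmFit and eBayes, 7 residual and 6.84 prior degrees of freedom). Tests were two-sided, p-values were Benjamini-Hochberg adjusted over all genes, and a gene was called at an adjusted p under 0.05. Errors of log2 changes are SE. Plots were made in Python 3.11.15 (matplotlib 3.10.9). The test over all genes was also run on simulated data with known changes. Their spread and run differences were taken from the fits to these arrays.

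Numbers 2, 3, 5 and 6 occur in both IL-12 groups, and no label says that they pair samples. Deviations from group means of same-numbered arrays correlated at 0.36, 0.30, 0.52 and 0.37. All were over 0.1, the limit set for a fit with the number as a block, so its results are given where they end a call. The best correlation with another number was 0.45, 0.50, 0.41 and 0.43, and only number 5 correlated best with its own number. With the run also removed, the correlations of same-numbered arrays were -0.26, -0.18, 0.03 and 0.03. No block could be fitted for comparisons with untreated cells, whose numbers 7 and 8 occur in no other group.

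Genes were named by rule: the 10 genes, Ifng, from each of 8 related lists up to 3 genes with the smallest p in each 8 h comparison, and the 5 genes most like Nqo1 and like Glrx. The 10 genes and the lists were chosen with earlier results of these data known. Members of the lists without a probe set of their own, 7 of 127, were not analysed here. Alternatives covered the run term, arrays used, replicate block, probe set choice, dim genes, normalization, variance model, control group, each array left out, and, chosen after seeing the data, the macrophage and monocyte marker mean as a covariate.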

Additional observations from a re-analysis of the deposited data

Results flagged for a closer look

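Array 6 of the IL-12 8 h group lay apart for Sod3, an extracellular superoxide dismutase gene, at 6.57 against 6.73 or more on the other 3 arrays. It was 1 such case among 116 pairs of gene and group examined, and a lone case among so many can arise by chance.

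In 4 named genes the 8 h minus 2 h difference was more negative among arrays numbered 2 to 4 than among arrays numbered 5 and 6, by limma's interaction test. For Ifng the difference between runs was -0.95 (adjusted p = 0.00179), with -0.98 in the first run and -0.03 in the second. For Ahr it was -1.10 (adjusted p = 0.000374), for Chac1 -0.80 (adjusted p = 0.0174) and for Slc7a11 -0.85 (adjusted p = 0.0372). None of the 10 NRF2 system genes met this test.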

How the results depend on the processing

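Among the 10 genes, alternative settings left direction and call of called differences as they were in 111 cases, lost the call in 23 and turned the direction in 0. Of differences not called, 5 became called: Nfe2l2 (-0.27) and Gclc (-0.33) in 8 h against 2 h among numbers 2 to 4, Gclc without 8 h array 5 (-0.25), and Glrx (-0.54) and Gsr (-0.39) in untreated cells against baseline with the values quantile-normalized once more. Among the other named genes 1 call turned direction: Nqo2 in untreated cells against baseline, at -0.18 with the baseline array assigned to numbers 2 to 4. Counts of called genes are given in the order 2 h against untreated, 8 h against untreated, 8 h against 2 h and untreated against baseline, where the model gave 14, 625, 2496 and 2022. Without the run term they were 9, 243, 871 and 115. With the added macrophage marker covariate they were 4, 140, 1479 and 94. Among numbers 5 to 8 alone the first 3 were 1, 320 and 363. With the baseline array pooled with untreated cells 8 h against untreated gave 90, and with it assigned to numbers 2 to 4 untreated against baseline gave 204. With the replicate block 8 h against 2 h gave 1246. The block ended 1266 of the 2496 calls of that comparison, among them Srxn1 and 16 of the 34 list genes called: Mafk, Mafg, Bach2, Btrc, Ggct, Slc7a11, Abcc1, Txnrd3, Nadk, Mthfd2, Aco1, Ephx1, Pir, Trim16, Esd and Cyp1b1. It ended no other call of the 10 genes or the lists. Among brighter genes alone the difference between runs was called for 620 genes, against 387 before. Leaving out 1 array at a time gave 2 to 13, 267 to 568, 1525 to 2339 and 1464 to 1498. The first count was 2 without untreated array 7, 5 without untreated array 8 and 9 without 2 h array 3. The second was 300 and 267 without untreated arrays 7 and 8, and the third 1525 without 8 h array 3. Where 1 untreated array was left, it was assumed to vary like the other groups. The cause of these shifts was not tested. No background level was measured here, so how far dim signals such as Nqo1 outside the 8 h arrays limit a fold is not known.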
